A study of Mus musculus with 24 samples.

Results

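Pax6 is a transcription factor with a paired domain and a homeodomain that is needed for the formation of the eye lens and for the patterning and neurogenesis of the forebrain. Enhancers that such factors bind are often flanked by nucleosomes carrying H3K4me1, and active ones also carry H3K27ac, whereas H3K4me3 marks promoters and H3K27me3 marks chromatin silenced by Polycomb complexes. Sites bound by a factor outside all of these marks have been described for many factors, and FAIRE, which recovers nucleosome-poor DNA, gives a view of such sites that does not depend on a histone antibody.

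The regions described here are the Pax6 ChIP-seq peaks of newborn lens that had no forebrain Pax6 peak and none of the 4 profiled histone marks in lens. They were selected from the authors' peak list as the lens Pax6 peaks that shared no base with a forebrain Pax6 peak, nor with any lens region of H3K4me1, H3K4me3, H3K27ac or H3K27me3. The rule kept 1313 of 3815 lens Pax6 peaks, which is 34.4% of the list (exact 95% interval 32.9% to 35.9%) and 51.0% of the 2573 peaks without a forebrain Pax6 peak. They are called lens-only unmarked peaks. The remaining lens Pax6 peaks fall into 1260 lens-only marked peaks, 594 shared unmarked peaks and 648 shared marked peaks, where shared means that a forebrain Pax6 peak overlapped.

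All samples came from CD-1 mice, with whole lens taken at P1 and forebrain at E12.5. The lens groups were Pax6, H3K4me1, H3K4me3, H3K27ac, H3K27me3 and RNA polymerase II ChIP and FAIRE, with 1 library each, and the forebrain groups were the same ChIP targets with 1 library each, apart from Pax6 with 2 libraries given as 1 list. RNA-seq held 1 library each of lens epithelium, lens fiber and forebrain. Wherever lens is set beside forebrain, the effect of tissue and that of age cannot be told apart, and the number of animals behind a library is not given in the labels. Whole lens joins epithelium and fibers, so binding or a mark in a part of the cells cannot be told apart from a weaker signal in all of them.

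Each group had 1 list, so no value could be set against replicates. Intervals on shares are exact Clopper-Pearson 95% intervals, and those on a difference of shares are Newcombe 95% intervals. Both cover counting error over peaks only, are not adjusted for the number of comparisons, and peaks are not replicates. The depth of the ChIP and FAIRE libraries is unknown, so the lack of a listed region does not show that a mark was absent. The RNA libraries carried the markers of their labels. The lens crystallin Cryaa was listed at 11820 RPKM in lens epithelium, 138921 in lens fiber and 18.2 in forebrain, and the neurogenic factor Neurog2 at 0.423, 0.106 and 43.4 RPKM. Pax6 itself was listed at 142 RPKM in lens epithelium, 24.0 in lens fiber and 28.1 in forebrain. The markers of other cells were not at 0 in lens epithelium, where the blood gene Hba-a1 had 166 RPKM, the pigment cell gene Dct 24.1 and the endothelial gene Pecam1 10.7. In forebrain these 3 genes had 956, 4.74 and 5.83 RPKM, and in lens fiber 2.76, 0.0473 and 0.478. The part of such cells in the ChIP lists was not tested.

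Open chromatin was listed at a minority of the lens-only unmarked peaks, and less often than at the lens-only marked ones. Lens FAIRE regions overlapped 287 of 1313 lens-only unmarked peaks, 21.9% (19.6% to 24.2%), against 37.5% of all lens Pax6 peaks. The share was 54.0% (51.2% to 56.8%) at lens-only marked, 20.7% (17.5% to 24.2%) at shared unmarked and 52.6% (48.7% to 56.5%) at shared marked peaks. The difference from lens-only marked peaks was -32.2 percentage points (-35.7 to -28.6). The difference from shared unmarked peaks was 1.15 points, with an interval of -2.91 to 4.99 that holds 0. FAIRE was not used to choose the peaks. With each lens histone list held to its stronger 0.5, so that 1909 peaks counted as lens-only unmarked, the share was 33.7%.

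**Figure D1:**
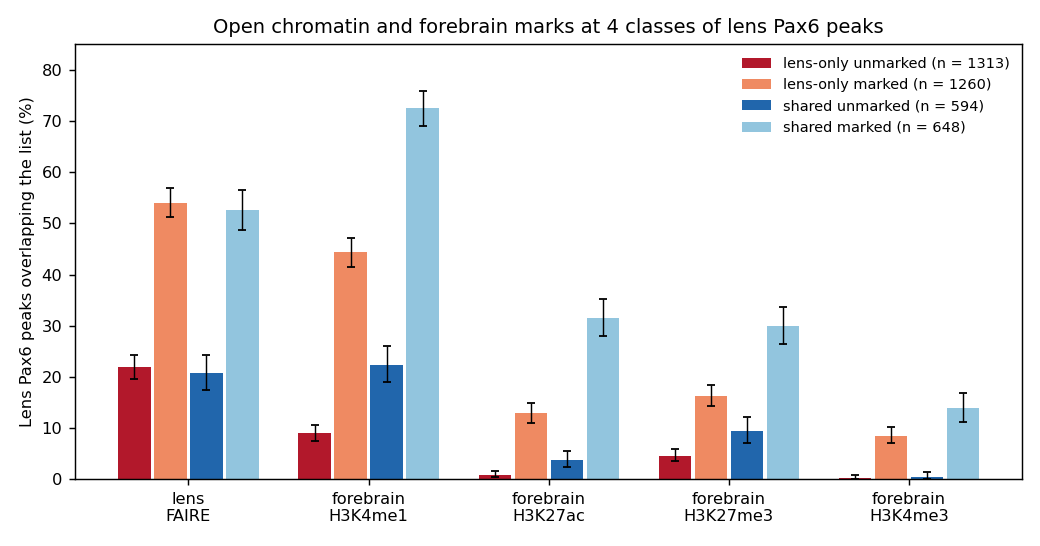
Share of lens Pax6 peaks (y axis, percent) in each of 4 classes that overlapped a lens FAIRE region or a forebrain histone region by at least 1 bp. Bars are shares and error bars exact 95% intervals over peaks, and lens-only unmarked peaks have the lowest bar for each of the 4 forebrain marks, with intervals that overlap those of shared unmarked peaks for H3K4me3.

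Where FAIRE was present it mostly lay on the Pax6 summit. Of the 287 lens-only unmarked peaks with FAIRE, 247 (86.1%, 81.5% to 89.9%) had the summit base inside the FAIRE region, whose centre lay a median of 81.0 bp from the summit. The other classes were alike, with the summit inside at 91.3% of lens-only marked, 80.5% of shared unmarked and 90.3% of shared marked peaks with FAIRE. Their median offsets were 103, 94.0 and 94.0 bp. The overlapped FAIRE regions had a median width of 324 bp (284 to 378), against 459 bp (420 to 489) at lens-only marked peaks, 350 bp (282 to 413) at shared unmarked peaks and 265 bp over all 107737 FAIRE regions. Wider FAIRE regions are more likely to overlap any peak. At the summit base 18.8% of lens-only unmarked peaks lay in a FAIRE region. At 500 bp from the summit, averaged over both sides, it was 4.34%, at 1000 bp 2.06% and at 5000 bp 2.13%. The share thus fell off within 500 bp of the summit, and at lens-only marked peaks it was 49.4% at the summit and 5.16% at 1000 bp, and at shared unmarked peaks 16.7% and 1.60%.

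**Figure D2:**
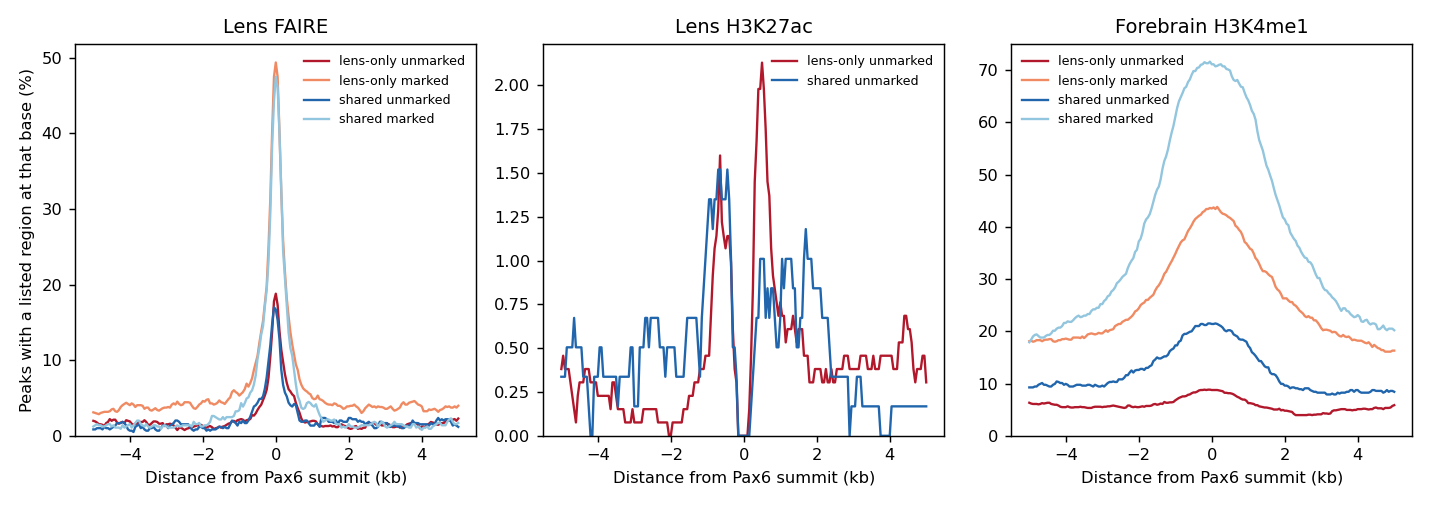
Share of lens Pax6 peaks (y axis, percent) with a listed region at each distance from the Pax6 summit (x axis, kb), for lens FAIRE, lens H3K27ac and forebrain H3K4me1. Lines are classes of peaks, and H3K27ac is drawn for unmarked classes only, where the rule set it to 0 at the peak. FAIRE peaks at the summit with 18.8% of lens-only unmarked peaks, and H3K27ac of the same peaks, averaged over both sides, is at 1.60% 500 bp away.

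Forebrain histone marks were rarer at lens-only unmarked peaks than in each of the other classes, with intervals of the difference that exclude 0 for H3K4me1, H3K27ac and H3K27me3. Forebrain H3K4me1 overlapped 118 of the 1313, 8.99% (7.50% to 10.7%), against 33.5% of all lens Pax6 peaks. It lay at 44.3% of lens-only marked peaks, 22.4% of shared unmarked peaks and 72.5% of shared marked peaks. The difference was -35.3 points (-38.4 to -32.1) from lens-only marked and -13.4 points (-17.2 to -9.82) from shared unmarked peaks. The share was 18.8% with each lens histone list held to its stronger 0.5, and 3.01% of 1328 lens-only unmarked peaks when the longer list of each lens and forebrain pair was held to the number of intervals of the shorter.

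Forebrain H3K27ac lay at 12 of the lens-only unmarked peaks, 0.914% (0.473% to 1.59%), where the share over all lens Pax6 peaks was 10.5%. The corresponding shares were 12.9% at lens-only marked and 3.70% at shared unmarked peaks, differences of -12.0 points (-14.0 to -10.2) and -2.79 points (-4.67 to -1.37). With so few peaks the share moved between 0.305% at the summit base and 3.77% with the stronger 0.5 of each lens histone list. Forebrain H3K27me3, the Polycomb mark, covered 61 lens-only unmarked peaks, 4.65% (3.57% to 5.93%), with 13.5% over the whole list. At lens-only marked and shared unmarked peaks it covered 16.3% and 9.43%, differences of -11.6 points (-14.0 to -9.31) and -4.78 points (-7.59 to -2.33). Promoter-type H3K4me3 of forebrain touched 4 lens-only unmarked peaks (0.305%), against 5.37% of the list, and the difference from shared unmarked peaks was -0.200 points (-1.19 to 0.381).

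RNA polymerase II, which transcribes protein-coding genes, was listed at few of these sites. A lens polymerase peak overlapped 4 of the 1313 (0.305%, 0.0831% to 0.778%) and 1.10% of all lens Pax6 peaks, and a forebrain polymerase peak overlapped 1 of them, against 0.498% of the list. Lens polymerase was at 1.11% of lens-only marked peaks, a difference of -0.806 points (-1.57 to -0.153), and at 0.337% of shared unmarked peaks, a difference of -0.0321 points (-0.934 to 0.503).

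Most lens-only unmarked peaks therefore had no listed histone mark in either tissue. None of the 4 forebrain lists reached 1137 of the 1313, 86.6% (84.6% to 88.4%), against 58.0% of all lens Pax6 peaks, 45.2% of lens-only marked and 72.4% of shared unmarked peaks. Of the others, 100 had H3K4me1 alone, 51 H3K27me3 alone and 10 both of these. A further 7 had H3K4me1 with H3K27ac, 4 H3K27ac alone, 3 H3K4me3 alone and 1 all but H3K27me3. FAIRE lay at 34.0% (24.8% to 44.2%) of the 100 with forebrain H3K4me1 alone, at 25.5% (14.3% to 39.6%) of the 51 with H3K27me3 alone and at 227 (17.7% to 22.4%) of the 1137 without any forebrain mark.

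Against the whole forebrain lists, the islands that did cover lens-only unmarked peaks were of ordinary size for H3K4me1 and long for H3K27me3. The H3K4me1 islands had a median width of 3200 bp, against 3000 bp over the forebrain list, and a median ratio of ChIP over control of 2.54 against 2.80. Those of H3K27me3 had a median width of 7200 bp against 5000 bp. At shared unmarked and lens-only marked peaks the medians were 7600 and 10200 bp for H3K27me3, and 3400 and 4000 bp for H3K4me1. Longer islands are more likely to cover any site. A lens H3K4me1 island lay within 10 kb of 42 of the 118 peaks with forebrain H3K4me1 (35.6%), and a lens H3K27me3 island within 10 kb of 26 of the 61 with forebrain H3K27me3 (42.6%).

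Lens-only unmarked peaks ranged from direct neighbours of marked chromatin to sites more than 1 Mb away. The nearest lens histone region lay a median of 25156 bp from a lens-only unmarked peak (23175 to 27547), with quartiles of 7359 and 81057 bp and a maximum of 1914484 bp. It was 48943 bp when each lens histone list was held to its stronger 0.5. Shared unmarked peaks had a median of 19118 bp (15855 to 23262). Since the rule used these lists, the distances are a description. Fewer than 10 kb separated 397 of the lens-only unmarked peaks (30.2%) from a marked region, against 36.7% of shared unmarked peaks, and 274 (20.9%, against 16.8%) had no lens histone region within 100 kb.

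By single marks, H3K4me1 islands were nearest most often, to 572 of the 1313 (43.6%), although they made up 23.6% of all lens histone intervals. H3K27me3 was nearest to 457 (34.8%), H3K4me3 to 184 and H3K27ac to 100 (7.62%). Shared unmarked peaks had the same order, with 270, 218, 71 and 35 of 594. Median distances were 60032 bp to H3K4me1, 95335 bp to H3K27me3, 128377 bp to H3K27ac and 128658 bp to H3K4me3. For lens-only marked peaks the median distance to lens H3K4me3, the promoter mark, was 61552 bp, and for shared unmarked peaks it was 108626 bp (94307 to 128801), with an interval that overlaps that of lens-only unmarked peaks (115113 to 141632). Lens-only unmarked peaks had a median of 0 lens H3K27ac regions centred within 100 kb of the summit, against 3 for lens-only marked and 0 for shared unmarked peaks. None lay there for 724 of them (55.1%, 52.4% to 57.9%), against 23.7% of lens-only marked and 52.4% (48.3% to 56.4%) of shared unmarked peaks. The rule used this list and a marked peak can count a region that it overlaps, so these counts are a description.

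FAIRE regions were not sparser around lens-only unmarked peaks by the median count. The median number of FAIRE regions centred within 100 kb was 8 for lens-only unmarked, 8 for lens-only marked and 7 for shared unmarked peaks. The 274 lens-only unmarked peaks with no lens histone region within 100 kb overlapped FAIRE in 71 cases, 25.9% (20.8% to 31.5%), against 20.8% (18.4% to 23.4%) of the other 1039. Forebrain marks were also sparse around these isolated peaks. A forebrain histone list overlapped 18 of the 274 (6.57%, 3.94% to 10.2%) and 158 of the 1039 (15.2%, 13.1% to 17.5%). For 141 of the 274 (51.5%) the forebrain had no histone region within 100 kb either, against 54 of the 1039 (5.20%).

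The share with open chromatin was highest at the peaks nearest to marked regions. Of the 43 lens-only unmarked peaks with fewer than 200 bases to a lens histone region, 32 had FAIRE, 74.4% (58.8% to 86.5%). The share was 34.7% (21.7% to 49.6%) of 49 peaks at 0.2 to 1 kb, 18.7% (13.1% to 25.4%) of 166 at 1 to 5 kb and 12.8% (9.29% to 17.0%) of 313 at 5 to 20 kb. Beyond that it was 19.6% of 301 peaks at 20 to 50 kb, 22.2% of 167 at 50 to 100 kb, 25.8% (20.2% to 32.1%) of 221 at 100 to 500 kb and 26.4% of 53 farther away. The lowest share was thus in the middle of the range, and the interval at 5 to 20 kb does not overlap that at 100 to 500 kb. Shared unmarked peaks followed a like course, with 41.7% (22.1% to 63.4%) of 24 peaks below 200 bases and 40.0% of 35 at 0.2 to 1 kb. Their share was 13.9% (8.94% to 20.3%) of 158 at 5 to 20 kb and 24.7% (15.8% to 35.5%) of 81 at 100 to 500 kb. These last intervals overlap.

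**Figure D3:**
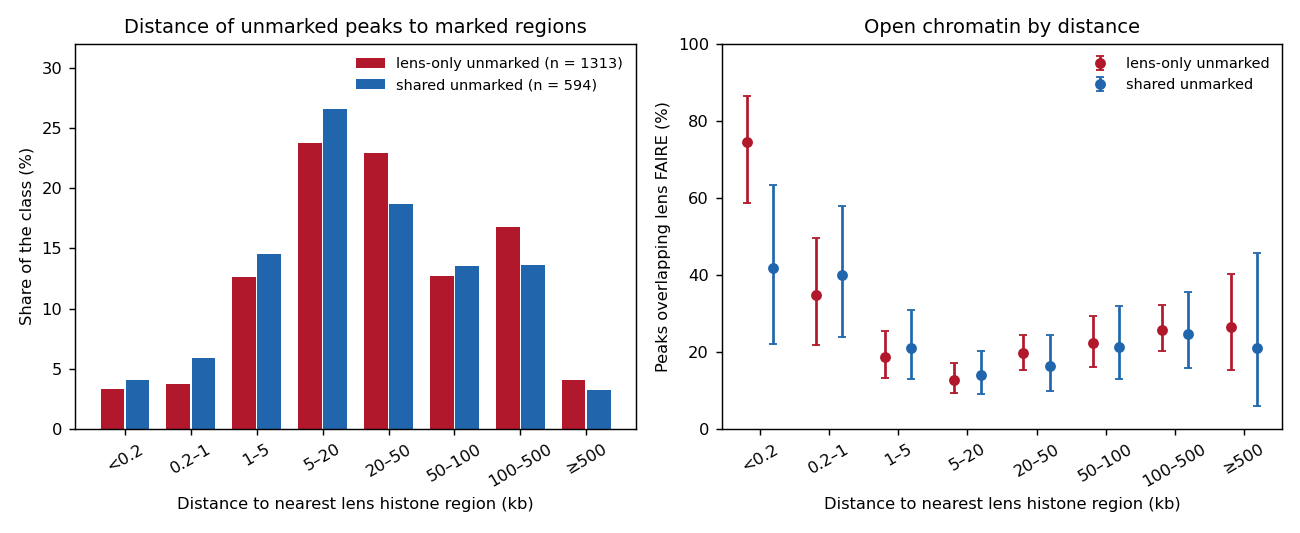
Left, share of unmarked peaks (y axis, percent of the class) by distance to the nearest lens histone region (x axis, kb), for 1313 lens-only and 594 shared unmarked peaks. Right, share of the peaks in each distance class that overlapped lens FAIRE, with exact 95% intervals, which is 74.4% for lens-only unmarked peaks below 0.2 kb and 12.8% at 5 to 20 kb.

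In 92 cases (7.01%, against 9.93% of shared unmarked peaks) a lens histone region began within 1 kb of a lens-only unmarked peak. Of these, 24 had one on each side. H3K27ac lay within 1 kb of 45 peaks (3.43%, against 3.87% of shared unmarked peaks), of which 13 had it on both sides. Of the 43 peaks with a mark below 200 bases, 33 had H3K27ac there. H3K4me1 lay that close to 10, H3K4me3 to 7 and H3K27me3 to 6. Among shared unmarked peaks, 10 had H3K27ac below 200 bases and 11 had H3K4me1. At lens-only marked peaks H3K27ac lay at 9.05% of summits and, averaged over both sides, at 20.6% 500 bp away. For lens-only unmarked peaks with a mark this near, the word unmarked holds for the bases of the peak only. The 24 flanked on both sides overlapped FAIRE in 19 cases, 79.2% (57.8% to 92.9%), those flanked on 1 side in 30 of 68 (44.1%, 32.1% to 56.7%), and those with no mark within 1 kb in 238 of 1221 (19.5%, 17.3% to 21.8%). Forebrain H3K4me1 lay at 6 of the 24, 18 of the 68 and 94 of the 1221.

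At the edge of the rule, 14 lens-only unmarked peaks had fewer than 50 bases to a lens histone region, and 19 lens-only marked peaks overlapped one by at most 50 bases. Coordinates are given on mm9. The nearest member, found at 52003685 to 52003952 on chromosome 7, directly adjoined a lens H3K4me3 region, had a fold enrichment of 9.08, and overlapped lens FAIRE and forebrain H3K4me1, H3K4me3 and H3K27ac. The next lay on chromosome 3 at 34488584 to 34488915, 7 bp from lens H3K27ac with a fold enrichment of 7.86, and on chromosome 2 at 37799356 to 37799589, 11 bp from lens H3K4me1 with 6.57. Just outside the rule were a peak on chromosome 3 at 96729794 to 96730119, with 3 bp in lens H3K27ac and a fold enrichment of 7.37, and a pair on chromosome 12, at 55733281 to 55733497 (5.91) and 40647133 to 40647493 (5.26), each with 10 bp in lens H3K27ac. All 3 of these overlapped lens FAIRE, and the last one also forebrain H3K4me1. Of the 3 nearest members, the one on chromosome 3 had no FAIRE region.

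At the other end, the most remote peak lay on chromosome 1 at 143272685 to 143272895, with 1914484 bp to the nearest lens histone region, 714084 bp to the nearest forebrain one and a fold enrichment of 6.57. The next in order were also on chromosome 1, at 103828318 to 103828551 with 1699782 bp and at 103673624 to 103673836 with 1545088 bp, both with a fold enrichment of 5.59. None of these 3 overlapped FAIRE or a forebrain mark. Genes near the positions named here were not analysed here.

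Lens-only unmarked peaks were the weakest class of the list by the median of the authors' fold enrichment at the summit, which comes from the ChIP that the rule used and is given as a description. Their median was 6.24 (6.24 to 6.57), with quartiles of 5.59 and 7.56 and a range of 1.94 to 31.9. The medians were 7.15 at lens-only marked, 7.81 at shared unmarked and 8.13 at shared marked peaks. They were also the narrowest, with a median width of 255 bp against 299, 319 and 318 bp. In quartiles of the whole list, ordered by rising strength, lens-only unmarked peaks made up 48.4%, 38.1%, 33.3% and 15.5% of the peaks. Quartiles hold unequal numbers (1138, 835, 888 and 954) because many peaks share a value.

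FAIRE lay most often at the strongest peaks of this class. It was at 16.9% (13.8% to 20.3%) of 551 peaks in the weakest quartile, 15.4% of 318 in the next, 24.7% of 296 in the one above and 48.6% (40.4% to 57.0%) of 148 in the strongest. In the strongest quartile the share was below that of lens-only marked peaks (64.4%, difference -15.7 points, -25.0 to -6.24) and above that of shared unmarked peaks. Those had FAIRE at 45 of 198, 22.7% (17.1% to 29.2%), so the difference was 25.9 points (15.8 to 35.5). In the weakest quartile the sign was the other way, at -8.31 points (-16.8 to -0.933). In the middle quartiles the intervals of the difference hold 0, at 1.65 points (-6.84 to 8.48) and 5.58 points (-2.76 to 13.1). Without peaks that lay within 1 kb of a lens histone region, the strongest quartile held FAIRE at 57 of 128 lens-only unmarked and 39 of 183 shared unmarked peaks, a difference of 23.2 points (12.7 to 33.4). Among those with no lens histone region within 100 kb it was 21 of 32 (65.6%) and 10 of 37, a difference of 38.6 points (15.1 to 56.8). The comparison with shared unmarked peaks in the strongest quartile was picked after the values were seen, and so were these restrictions.

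**Figure D4:**
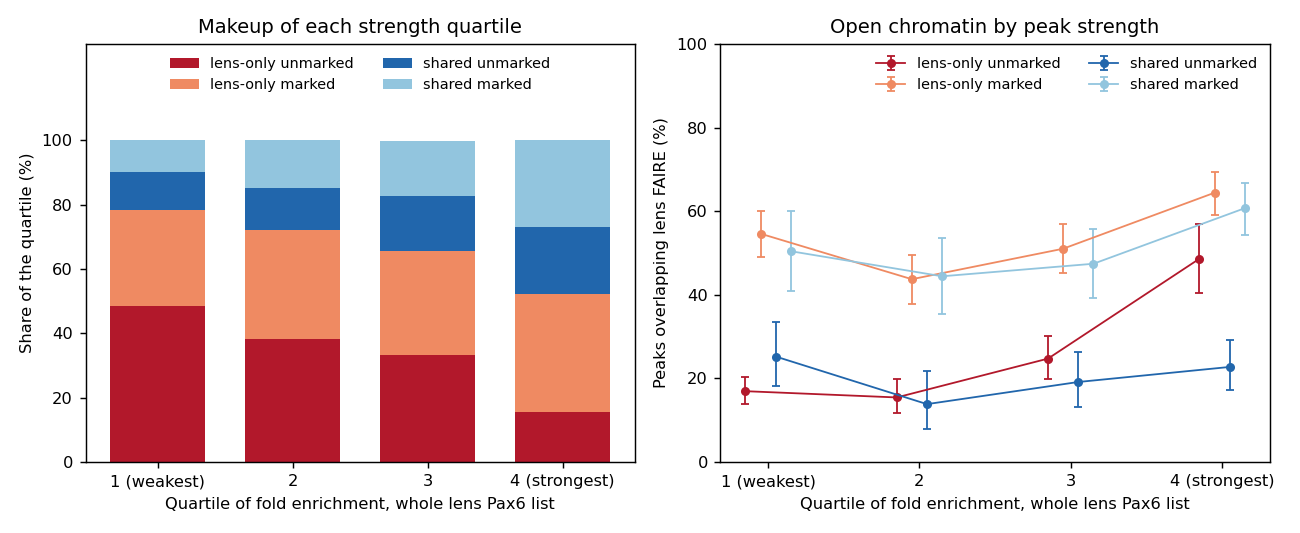
Left, share of each quartile of fold enrichment over the whole lens Pax6 list (y axis, percent) held by the 4 classes, with lens-only unmarked peaks at 48.4% in the lowest and 15.5% in the highest quartile. Right, share of peaks in each class and quartile that overlapped lens FAIRE, with exact 95% intervals; the line of lens-only unmarked peaks reaches 48.6% in the strongest quartile and that of shared unmarked peaks 22.7%.

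Forebrain H3K4me1 at lens-only unmarked peaks lay between 8.17% and 8.78% in the lower 3 quartiles and at 14.2% (21 of 148) in the strongest. The difference from shared unmarked peaks was -19.2 points (-27.6 to -11.9) in the weakest quartile and -5.00 points (-12.7 to 3.15) in the strongest, where the interval holds 0. Against lens-only marked peaks it was -45.8 points (-51.4 to -39.9) in the weakest and -23.1 points (-30.1 to -15.0) in the strongest quartile. The lower forebrain share than at lens-only marked peaks therefore held within each quartile of strength.

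Within the class, the 287 peaks with FAIRE had a median fold enrichment of 7.20 (6.57 to 7.56) and the 1026 without it 6.24 (6.24 to 6.24). Their median widths were 278 and 250 bp. Forebrain H3K4me1 lay at 14.6% (10.8% to 19.3%) of those with and 7.41% (5.88% to 9.18%) of those without FAIRE. A lens histone region lay within 1 kb of 17.1% (12.9% to 21.9%) and 4.19% (3.05% to 5.60%), while the median distance to one was 29738 bp (22868 to 38113) and 24516 bp (22274 to 26900). Peaks with FAIRE were thus more often within 1 kb of marked chromatin, while the intervals of the median distances overlap. Forebrain H3K27me3 was at 6.27% (3.76% to 9.73%) and 4.19% (3.05% to 5.60%), with intervals that overlap.

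**Figure D5:**
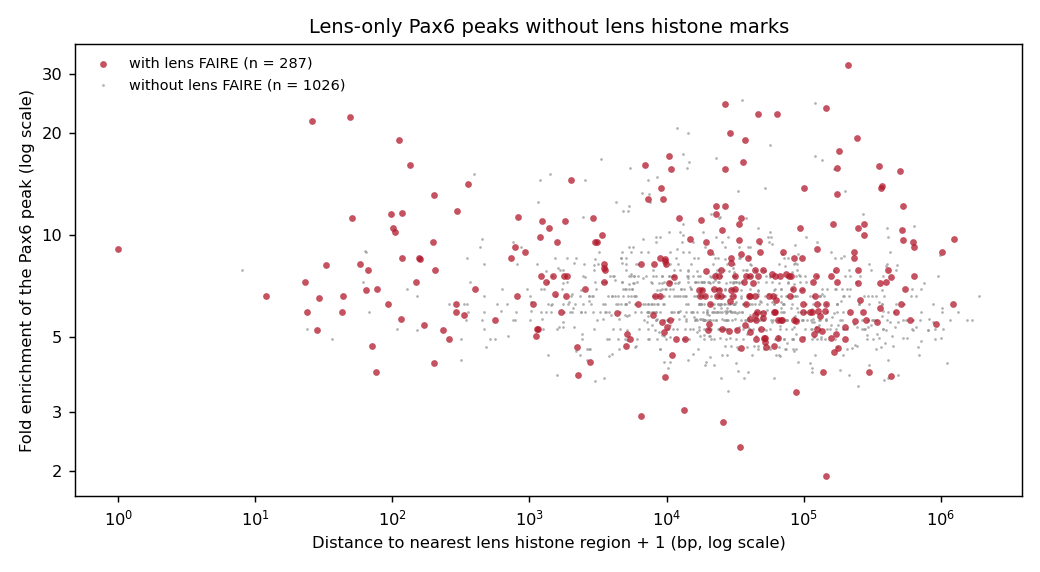
Each point is 1 of the 1313 lens-only unmarked peaks, by distance to the nearest lens histone region plus 1 bp (x axis, log scale) and fold enrichment of the Pax6 peak (y axis, log scale). Red points are the 287 peaks with lens FAIRE and grey points the 1026 without; most points below 200 bp are red, where 32 of 43 peaks have FAIRE, and the highest point is a peak of fold enrichment 31.9.

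The strongest peak of the class, at 111904264 to 111904926 on chromosome 6, had a fold enrichment of 31.9 and ranked 17 among all lens Pax6 peaks. It overlapped FAIRE over 439 of its 663 bp and no forebrain mark, and the nearest lens histone region, of H3K27me3, was 211474 bp away. A peak on chromosome 1 at 92584623 to 92585009 followed with a −log10 q of 82.8 and rank 34, without FAIRE or a forebrain mark and 35222 bp from lens H3K4me1. The peak on chromosome 7 at 72174932 to 72175327 (24.6) had no FAIRE and lay in forebrain H3K4me1. These strongest sites thus differed among themselves in open chromatin.

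FAIRE was present at the peaks on chromosome 3 at 141937973 to 141938333 (fold enrichment 24.3), chromosome 18 at 49416803 to 49417323 (23.7), chromosome 2 at 51513171 to 51513549 (22.7) and chromosome 3 at 35077641 to 35078085 (22.7). None of these had a forebrain mark, and their distances to the nearest lens histone region were 26667, 145677, 46370 and 64315 bp. The last of the 10 strongest were on chromosome 6 at 120808296 to 120808753 (22.3), on chromosome 13 at 97858083 to 97858575 (21.7) and on chromosome 13 at 113802886 to 113803304 (20.7). The first of these lay 48 bp from lens H3K27ac, in FAIRE along its whole length and in forebrain H3K4me1 and H3K27ac. The second lay 25 bp from lens H3K4me1 with FAIRE, and the third 11885 bp from lens H3K27me3 without it. Of the 10 strongest, 7 had FAIRE, 2 had a forebrain mark and 2 lay within 1 kb of a lens mark. FAIRE lay at 21.9% of the whole class and at 48.6% of its peaks in the strongest quartile. Of the whole class, 86.6% had no forebrain mark and 7.01% lay within 1 kb of a lens mark.

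Among peaks with forebrain marks, the strongest with H3K27me3 alone and FAIRE lay on chromosome 3 at 47267482 to 47267865 (fold enrichment 17.7), 181081 bp from a lens histone region. Its counterpart without FAIRE lay on chromosome 1 at 19901276 to 19901652 (14.8). With forebrain H3K4me1 alone and FAIRE it was a peak on chromosome 4 at 109464844 to 109465284 (14.1), 357 bp from lens H3K27ac. With H3K4me1 and H3K27ac and no FAIRE it was one on chromosome 1 at 178875018 to 178875330 (10.8). The strongest peaks in both H3K4me1 and H3K27me3 of forebrain had 7.66 on chromosome 15 at 21274580 to 21274908 with FAIRE and 7.20 on chromosome 1 at 184502225 to 184502521 without it. Only 10 peaks had both marks, against 100 with H3K4me1 alone and 51 with H3K27me3 alone, so these maxima come from groups of unequal size.

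Few lens-only unmarked peaks lay close to another lens Pax6 peak. The nearest one had its summit a median of 217071 bp away (193169 to 235539), against 103447 bp (90676 to 115330) for lens-only marked and 184724 bp (162890 to 220307) for shared unmarked peaks. One lay within 10 kb of 59 (4.49%, 3.44% to 5.76%), against 15.1% of lens-only marked and 5.39% (3.71% to 7.52%) of shared unmarked peaks, so the intervals of the unmarked classes overlap. With members at most 50 kb apart joined, 1208 stood alone, 45 runs held 2 and 5 runs held 3. The tightest run of 3 spanned 4333 bp on chromosome 14 at 66715799 to 66720131, with fold enrichments of 6.57 to 7.71 and no FAIRE or forebrain mark. Another spanned 23735 bp on chromosome 18 at 58466446 to 58490180, with FAIRE at 2 of 3 peaks and a highest fold enrichment of 13.8. The third, on chromosome 13 at 60574613 to 60599510, spanned 24898 bp with FAIRE at 1 peak and a forebrain mark at 1. The nearest neighbour was itself a lens-only unmarked peak in 41.5% of cases (38.8% to 44.2%), where this class makes up 34.4% of the list. A neighbour of the same class was above its share of the list in the other classes too, at 43.2% against 33.0% for lens-only marked, 18.0% against 15.6% for shared unmarked and 23.1% against 17.0% for shared marked peaks.

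Forebrain Pax6 peaks lay farther from these sites than from lens-only marked ones, which is given as a description since the rule used that list. The nearest forebrain Pax6 peak was a median of 276066 bp away (253686 to 297011), against 183282 bp (162160 to 199247) for lens-only marked peaks, and 2 of the 1313 had one within 1 kb, against 20 of 1260. Lens-only unmarked peaks made up 47.8% (39.1% to 56.6%) of the lens Pax6 peaks on chromosome 16 and 25.9% (19.8% to 32.9%) of those on chromosome 11, the extremes among 20 chromosomes.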

How the data were processed

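Regions were taken as the authors deposited them on mm9. Per the submitters' processing notes, MACS2 and SICER were used, and TopHat2, Cufflinks and Cuffdiff are named for the series without their roles. Pax6, H3K4me3, H3K27ac and RNA polymerase II came as deposited MACS2 peaks with a fold enrichment, a −log10 q and a summit offset, and lens FAIRE as regions without a score. H3K4me1 and H3K27me3 came as SICER islands (window 200 bp, gap 600 bp and FDR 0.001, as the deposited lists are named) with deposited read counts of ChIP and control, p-values and the ratio used here as strength. RNA was the authors' RPKM per gene. Aligner, peak thresholds, depth and the way the 2 forebrain Pax6 replicates became 1 list are not stated in the sources used here, and the input libraries were not analysed on their own.

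Overlap meant at least 1 bp. Distances count the bases between intervals, and coordinates are counted from 1. Python 3.11.15, numpy 2.4.6, pandas 2.3.3, scipy 1.17.1 and matplotlib 3.10.9 were used. The overlap code gave the bedtools 2.31.1 count in 12 of 12 lists and recovered 300 of 300 planted overlaps and 300 of 300 planted gaps in simulated data. Medians carry exact binomial order-statistic 95% intervals. Named were the 10 strongest members, the strongest in each combination of FAIRE and forebrain marks held by at least 5 members, the 3 nearest to and 3 farthest from lens marks, the 3 lens-only peaks left out with the shortest overlap, and the 3 runs with most members. Members, lists and rules were chosen with earlier results of these data known. The alternatives tried were other overlaps, stronger lists, the summit base and lists of equal number. Motifs and genes at the peaks were not analysed here.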

Additional observations from a re-analysis of the deposited data

How the results depend on the processing

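Of 45 alternative shares, medians and differences, 25 lay within the interval of the main value and 20 outside it. The number of lens-only unmarked peaks, 1313, was between 1194 and 1909 under 4 alternatives, and the median fold enrichment stayed between 6.24 and 6.57. Counting marks and forebrain Pax6 within 1 kb as overlap gave FAIRE at 19.5%, forebrain H3K27ac at 0.410%, no forebrain mark at 89.0% and a median distance of 28732 bp. With the stronger 0.5 of each lens histone list these were 33.7%, 3.77%, 75.8% and 48943 bp, with forebrain H3K4me1 at 18.8% and H3K27me3 at 6.86%. An overlap of 0.5 of the shorter interval gave forebrain H3K27ac at 1.76%. The summit base gave FAIRE at 18.8% and H3K27ac at 0.305%. Readouts within 1 kb gave FAIRE at 28.7%, H3K27ac at 2.82%, H3K27me3 at 6.25% and no mark at 83.8%. Lists of equal number, which also shortened lens lists and so left 1328 lens-only unmarked peaks, gave H3K4me1 at 3.01% and no mark at 91.3%. The FAIRE difference in the strongest quartile was 38.6 points without peaks within 100 kb of a lens histone region. Fewer or other peaks enter by construction in the membership alternatives, and otherwise the cause was not tested. No paired analysis was possible because each group has 1 list and no value comes from a test, and for the same reason no replicate could be left out. The unknown depth of each library limits what the lack of a region can show.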

Other observations

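FAIRE at lens-only unmarked peaks was uneven between chromosomes, a pattern chosen after its values were seen. On chromosome 5 it lay at 4 of 71 peaks (5.63%, exact 95% interval 1.56% to 13.8%), against 37 of 72 lens-only marked peaks (51.4%) and 8 of 37 shared unmarked peaks (21.6%) of that chromosome. On chromosome X it lay at 0 of 22, which allows a share of up to 15.4%, against 7 of 13 lens-only marked and 2 of 18 shared unmarked peaks. On the 18 other chromosomes the share at lens-only unmarked peaks had a median of 22.6% and ran from 6 of 48 on chromosome 11 up to 31.4% on chromosome 18.

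Peaks with a fold enrichment below 3 were 4 of 1313 among lens-only unmarked peaks (0.305%), against 59 of 1260 lens-only marked peaks (4.68%). They were also few among shared unmarked peaks (1 of 594, 0.168%) and shared marked peaks (0 of 648). A low number was thus not particular to lens-only unmarked peaks. All 4 of these lens-only unmarked peaks overlapped FAIRE, as did 58 of the 59 lens-only marked ones, of which 55 lay in lens H3K4me3.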
